A study of Homo sapiens with 2 samples.

Results

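Metallothionein genes and 2 genes of the zinc response were examined in Huh7 cells, a human hepatocellular carcinoma cell line, with and without knockdown of BRF2. The members were the rows of the deposited gene table named MT2A, MT1X, MT1E, MT1F, MT1G, MT1M, MT1H, MTF1 and SLC30A1. These are 9 of the 61541 genes in the table, and each name was found once. RNA-seq had been performed on Huh7 cells given a control siRNA (si-NC, here Huh7-NC) and on Huh7 cells given an siRNA against BRF2 (si-BRF2, here Huh7-si). BRF2 is a subunit of an RNA polymerase III initiation factor. Each of the 2 conditions is represented by 1 library of 1 cell line, so no difference below has a replicate check. Which of the study's BRF2 siRNAs was sequenced, and the time after transfection, are not given in the sources used here.

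The Huh7-NC library held 22852610 reads after rounding and the Huh7-si library 22088908. The reads of BRF2 numbered 1281 and 364 (log2 fold change -1.77, 95% interval -1.94 to -1.60), which fits the labels. All 8 hepatocyte markers examined had reads, from 76.6 to 3957 TPM (a level corrected for length and depth) in Huh7-NC and from 179 to 4077 in Huh7-si. Of 8 markers of other cells, which summed to 32.3 and 43.1 TPM, EPCAM gave 30.2 and 36.5. CD3E had no reads, PTPRC had 5 and 1 and VWF had 1 and 3. Of these 16 markers, the hepatocyte gene APOB (log2 fold change 1.04) and the fibroblast gene COL1A1 (1.64, from 76 to 229 reads) passed the criteria for a higher gene given below, and their part in the results was not tested.

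Metallothioneins are small proteins rich in cysteine whose thiols hold zinc, copper and cadmium, and the liver makes them in large amounts. MTF1 is the zinc-sensing transcription factor that switches on their genes, by binding short metal response elements in their promoters. SLC30A1 (ZnT1) carries zinc out of the cell at the plasma membrane and is itself a target of MTF1. A surplus of zinc or cadmium is thus met by binding and by export.

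The 7 metallothionein members form a cluster. On GRCh38 (GENCODE release 29) they lie within chr16:56608199-56684196, a stretch of 75.998 kb, with 6 genes on the plus strand and MT1G alone on the minus strand. MTF1 lies at chr1:37809567-37859620 and SLC30A1 at chr1:211571568-211578742, both on the minus strand. The deposited table has no positions of its own.

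The coding sequences of the metallothionein members are shown for how alike the copies are and for their cysteine codons, since cysteines hold the metal. Those of the most abundant copy (MT2A), of the next by reads (MT1E) and of the copies that differed most between the libraries (MT1G and MT1M) are given below from GENCODE transcripts, with every cysteine codon (TGC or TGT, read in frame) in capitals.
MT2A: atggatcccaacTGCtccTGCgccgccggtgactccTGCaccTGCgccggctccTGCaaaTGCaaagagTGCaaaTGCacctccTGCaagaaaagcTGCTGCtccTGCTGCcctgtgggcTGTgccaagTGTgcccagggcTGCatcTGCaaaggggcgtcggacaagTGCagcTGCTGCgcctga
MT1E: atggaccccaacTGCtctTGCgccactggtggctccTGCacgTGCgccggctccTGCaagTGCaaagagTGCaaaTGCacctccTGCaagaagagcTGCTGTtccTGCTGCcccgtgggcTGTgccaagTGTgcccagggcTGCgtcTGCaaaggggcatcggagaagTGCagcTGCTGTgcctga
MT1G: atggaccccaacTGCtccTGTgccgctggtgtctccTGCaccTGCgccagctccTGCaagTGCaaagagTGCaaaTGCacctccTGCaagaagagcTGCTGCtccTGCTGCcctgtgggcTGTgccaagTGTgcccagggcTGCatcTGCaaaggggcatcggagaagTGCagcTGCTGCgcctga
MT1M: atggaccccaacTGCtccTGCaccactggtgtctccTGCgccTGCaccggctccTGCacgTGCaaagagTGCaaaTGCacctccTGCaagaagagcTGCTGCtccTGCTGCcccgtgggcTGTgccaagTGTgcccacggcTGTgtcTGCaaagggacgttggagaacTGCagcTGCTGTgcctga
All 7 members have 61 codons before the stop, of which 20, or 32.8%, encode cysteine. Over the 21 pairs of members, the coding sequences were 88.7% to 95.2% identical. MT2A and MT1G differed at 9 positions, and MT1X and MT1F at 21. Windows of 50 bases of a member's transcript that are also found in another metallothionein gene made up 3.59% (MT1F) to 20.4% (MT1H) of all such windows. No window of 100 bases was shared by 6 of the members, while MT1H shared 10 of 298. The estimated reads of all 7 metallothionein members were fractional in at least 1 library, as happens when ambiguous reads are divided, and those of MTF1 and SLC30A1 were whole. The read length is not given in the sources used here.

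Promoter sequences from RefSeq (GRCh38.p14) were matched for 5 of the 9 members, namely MT2A, MT1X, MT1H, MTF1 and SLC30A1. The 250 bases before the start of the RefSeq transcript are given for MT2A and MT1X and for the exporter SLC30A1. RefSeq and GENCODE place some starts differently. The MT2A window lies inside the GENCODE gene (chr16:56608199-56609497), and the MT1X window reaches past the GENCODE start of its gene (chr16:56682424). MT2A and MT1X are the members of the cluster with the highest TPM values. Capitals mark matches to TGCACNC or TGCGCNC, the core of the metal response element, on either strand (any base at N, overlaps allowed).
MT2A, plus strand, chr16:56608334-56608583: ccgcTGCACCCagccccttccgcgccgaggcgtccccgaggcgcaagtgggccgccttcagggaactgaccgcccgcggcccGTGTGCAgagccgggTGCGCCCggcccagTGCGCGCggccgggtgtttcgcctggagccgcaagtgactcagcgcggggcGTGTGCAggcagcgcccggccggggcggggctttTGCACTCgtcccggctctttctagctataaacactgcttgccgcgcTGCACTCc
MT1X, plus strand, chr16:56682220-56682469: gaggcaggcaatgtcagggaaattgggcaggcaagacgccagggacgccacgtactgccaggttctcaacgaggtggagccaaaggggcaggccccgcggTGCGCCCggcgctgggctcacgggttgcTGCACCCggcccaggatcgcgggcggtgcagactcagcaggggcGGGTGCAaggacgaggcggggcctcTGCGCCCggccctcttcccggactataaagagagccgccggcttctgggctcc
SLC30A1, minus strand, chr1:211579162-211579411: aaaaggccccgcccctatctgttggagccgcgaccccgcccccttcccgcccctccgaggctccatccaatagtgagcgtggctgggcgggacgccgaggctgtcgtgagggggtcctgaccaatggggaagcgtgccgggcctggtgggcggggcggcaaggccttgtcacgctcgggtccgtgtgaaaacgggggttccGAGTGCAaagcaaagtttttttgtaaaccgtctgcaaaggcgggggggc
MT2A held 7 matches, MT1X 4 and SLC30A1 1. MT1H, whose promoter is not shown, held 8, and MTF1 held none. Among 35116 promoter windows of the same length, 24.8% held at least 1 match, 0.37% at least 4 and 0.0313% at least 7. A match describes the letters and does not show that MTF1 was bound in these cells.

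Metallothionein mRNA was abundant in both libraries, and MT2A led the family by a wide margin. Levels between genes are compared on the TPM scale, which is corrected for length. The lengths behind the TPM values are not given in the sources used here and differ from the deposited ones. MT1H and MT1M, listed at 697 and 232 bases, had 35 and 875 reads in Huh7-NC at 11.2 and 291 TPM. The margin and the order below therefore depend on the length used. By reads in Huh7-NC, MT2A (17865) and MT1E (6145) stood closer than by TPM. MT2A had 5827 TPM in Huh7-NC and 7334 TPM in Huh7-si, and ranked 13 and 9 among all genes of the table. MT1X had 759 and 994 TPM, and MT1E had 747 and 971 TPM. These MT1 copies lay close together, and with no replicates their order is not established. MT1F (468 and 641 TPM), MT1G (350 and 576 TPM) and MT1M (291 and 486 TPM) followed. MT1H was far lower, at 11.2 and 12.4 TPM. The exporter SLC30A1 had 7.69 and 13.2 TPM, and the regulator MTF1 had 2.44 and 4.19 TPM. The order of the members was the same in both libraries except that MT1H and SLC30A1 changed places. Each member had the larger TPM in Huh7-si. The share of all genes with a larger TPM there was not computed, so this does not set the members apart.

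**Figure D1:**
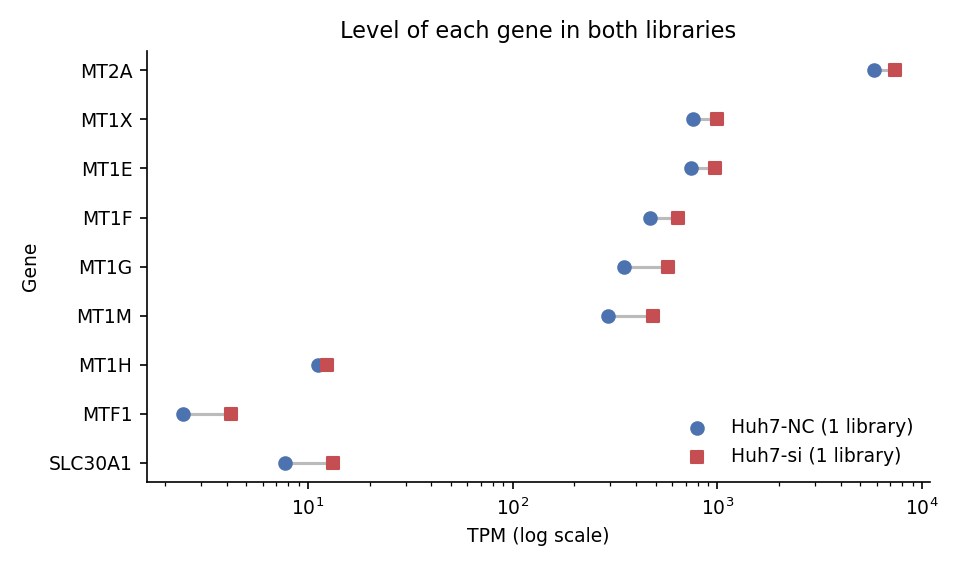
Level of each of the 9 genes in TPM (horizontal axis, log scale) in the Huh7-NC library (circles) and the Huh7-si library (squares), with a line joining the values of a gene. The levels run from 2.44 TPM for MTF1 to 7334 TPM for MT2A, and the square lies to the right of the circle for every gene drawn. The share of all genes with a larger TPM in Huh7-si was not computed.

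No member passed the study's criteria of a fold change of at least 2 with p under 0.05, in either direction. The p was taken from a two-sided exact binomial test on the reads, so that it is the libraries, not the conditions, that are compared. Over the 26379 genes with reads, 10.4% were called higher and 1.02% lower in Huh7-si. These are 2742 and 270 genes by the p used here, and they differ from the study's own counts. Fold changes below are ratios of CPM (reads scaled to the total of the library), and their 95% Clopper-Pearson intervals cover counting error only. In bulk RNA, a different number of cells that make a transcript and a different amount of it per cell cannot be told apart.

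Scaled by total reads, the 7 metallothioneins had log2 fold changes above 0, although that of MT1H turned below 0 with TMM scaling (-0.095). MT2A went from 17865 to 20384 reads, or from 782 to 923 CPM. Its log2 fold change was 0.24 (0.21 to 0.27), a fold change of 1.18. MT1E had 6145 and 6996 reads and a fold change of 1.18 (1.14 to 1.22). Both copies therefore stood at nearly the same ratio.

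MT1X had 2395 and 2874 reads and a fold change of 1.24 (1.18 to 1.31). MT1F had 1718 and 2112 reads and a fold change of 1.27 (1.19 to 1.36). The next copies differed more between the libraries. MT1G went from 1127 to 1677 reads, or from 49.3 to 75.9 CPM, a fold change of 1.54 (1.43 to 1.66). MT1M had 875 and 1326 reads, or 38.3 and 60.0 CPM, a fold change of 1.57 (1.44 to 1.71). MT1H had only 35 and 37 reads, and its fold change of 1.09 (0.67 to 1.79) was not distinguishable from 1 at this depth.

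The regulator and the exporter were higher as well. MTF1 went from 310 to 538 reads, or from 13.6 to 24.4 CPM. Its fold change of 1.80 (1.56 to 2.07) was the largest among the 9 members when scaled by total reads, and its interval alone reached past 2. By the TPM columns SLC30A1 and MTF1 both had a fold change of 1.72. Relative to protein-coding genes of like length, every metallothionein member (0.50 to 1.01) stood above MTF1 (0.28). Relative to all genes of like length, every one but MT1H did, MT2A only just (0.306 against 0.304). SLC30A1 had 854 and 1247 reads, or 37.4 and 56.5 CPM, and a fold change of 1.51 (1.38 to 1.65). The log2 fold change of MTF1 exceeded that of SLC30A1 by 0.25 (approximate 95% interval 0.012 to 0.49), but by the TPM columns both stood at 0.78.

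Without the fold criterion, 8 of the 9 members were higher at p under 0.05 by the exact binomial test, and MT1H was not. The same was true of 30.0% of all genes with reads. Such a p depends on how many reads a gene has, and among genes with at least 500 reads over both libraries, 45.6% were higher and 31.9% lower. At a lower fold criterion of 1.5, MT1G, MT1M, MTF1 and SLC30A1 were called higher, 4 of 9 members, where 17.6% of all genes with reads were. The median log2 fold change was 0.35 over the 9 members and 0.21 over all genes with at least 10 reads.

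**Figure D2:**
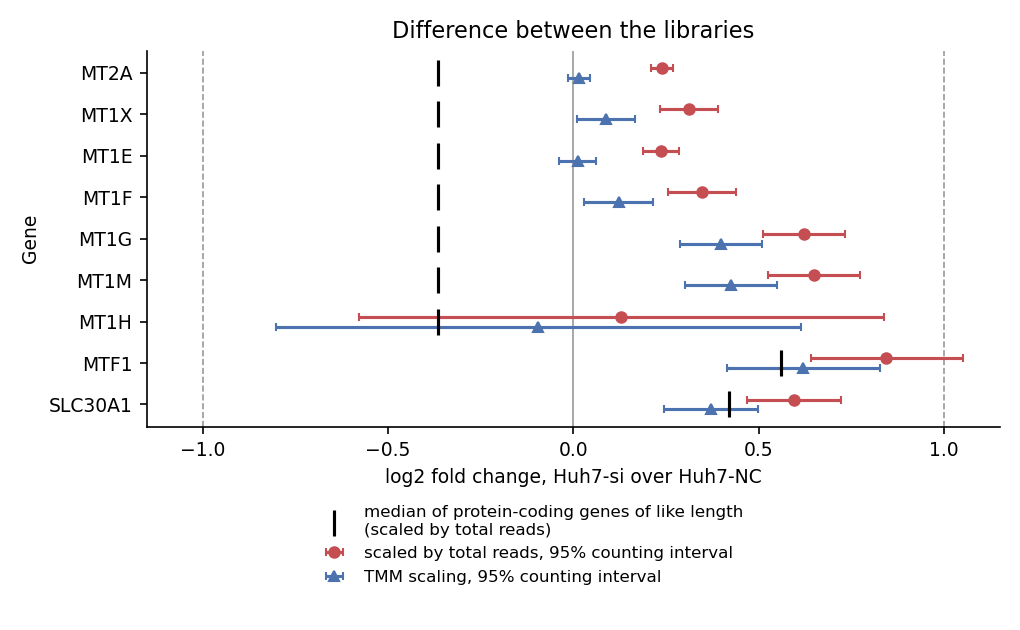
log2 fold change of each gene, Huh7-si over Huh7-NC (horizontal axis), scaled by total reads (circles) or by TMM (triangles), with 95% counting intervals, and the median of protein-coding genes of like length (black ticks). Dashed lines mark a 2-fold difference, which no gene reached with either scaling, and MT1H lies on the other side of 0 with TMM scaling (-0.095).

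How far the members stood from 0 depended on the scaling. TMM, which assumes that most genes do not differ, lowered every log2 fold change by 0.22 and brought the median of all genes to -0.018. MT2A then stood at 0.015 (-0.014 to 0.044) and MT1E at 0.012 (-0.038 to 0.061), so that neither was distinguishable from 0. MT1H, with its few reads, went to -0.095. MT1X (0.087) and MT1F (0.12) kept intervals just above 0. MT1G (0.40), MT1M (0.42), MTF1 (0.62) and SLC30A1 (0.37) stood clear of it. Thus 6 of the 9 members had a counting interval above 0 with TMM scaling, as did 19.2% of all genes with reads and 28.0% of those with at least 500 reads.

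The contrast among the copies did not depend on the scaling, because it was read within the family. MT2A made up 58.4% of all metallothionein reads in Huh7-NC (exact 95% interval 57.8% to 58.9%) and 56.8% in Huh7-si (56.3% to 57.3%). MT1E went from 20.1% to 19.5%, and its log2 fold change relative to the other metallothionein reads was -0.053 (-0.10 to -0.0038). MT1G made up 3.68% (3.47% to 3.90%) and 4.67% (4.46% to 4.89%), and MT1M 2.86% (2.67% to 3.05%) and 3.69% (3.50% to 3.89%). The shares of MT1G and MT1M were thus larger in Huh7-si beyond counting error, and that of MT2A was smaller. MT1X, at 7.82% and 8.01%, and MT1F, at 5.61% and 5.88%, had overlapping intervals.

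Set directly against MT2A, the log2 fold change of MT1M was larger by 0.41 (approximate 95% interval 0.28 to 0.54) and that of MT1G by 0.38 (0.27 to 0.50). That of MT1F was larger by 0.11 (0.011 to 0.20) and that of MT1X by 0.073 (-0.011 to 0.16). MT1M and MT1G differed from each other by 0.026 (-0.14 to 0.19), and MT1E and MT2A by -0.0032 (-0.060 to 0.054). These intervals bound the differences and do not show that the copies of a pair changed alike. MT1G and MT1M are not neighbours in the cluster, and MT1E lies between MT2A and MT1M. Reads shared out between copies can move a single copy, and their part in the contrast was not tested.

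**Figure D3:**
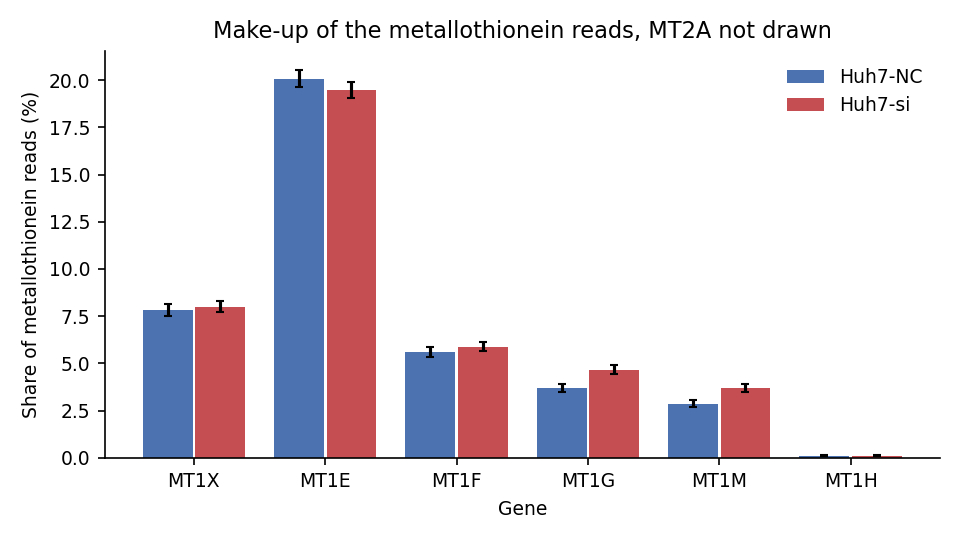
Share of all metallothionein reads (vertical axis, percent) taken by each MT1 member in Huh7-NC (blue) and Huh7-si (red), with exact 95% binomial intervals, 1 library each. MT1G goes from 3.68% to 4.67% and MT1M from 2.86% to 3.69%, while MT1E goes from 20.1% to 19.5%; MT2A, at 58.4% and 56.8%, is left out to keep the scale readable.

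The family total, which is not altered by sharing reads among copies, was also higher in Huh7-si. The table holds 21 metallothionein rows, of which 12 had reads. Their total went from 30610 to 35900 reads, or from 0.134% to 0.163% of the library. The fold change of the sum was 1.21 (1.19 to 1.23), and with TMM scaling it was 1.04 (1.02 to 1.05). Without MT2A, the other 6 members had 12295 and 15022 reads and a fold change of 1.26 (1.23 to 1.29).

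The remaining metallothionein rows were lower than the metallothionein members, except that MT1A (84.1 and 88.6 TPM) and MT1L (38.9 and 51.2 TPM) stood above MT1H. MT1A, a functional copy, had 250 and 239 reads (log2 fold change -0.016, -0.28 to 0.25). The pseudogene MT1L had 160 and 192 reads (log2 fold change 0.31, 0.0018 to 0.62), and the pseudogene MT1JP 26 and 42 (0.74, 0.0015 to 1.51). MT1B had 12 and 15 reads. The 14 rows outside the members had 450 and 494 reads together, a log2 fold change of 0.18 (-0.0036 to 0.37). MT3, a brain form, and MT4, a form of stratified epithelia, were at 0 reads throughout, a count that allows up to 3 reads each, or 0.131 CPM for Huh7-NC and 0.136 for Huh7-si.

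The metallothioneins had larger log2 fold changes than most short protein-coding genes, and the contrast was weaker against short genes of all types. In these libraries the ratio of Huh7-si to Huh7-NC climbed with the deposited gene length, and the members sit at both ends of that range. The metallothionein members were listed at 232 (MT1M) to 746 bases (MT1E), SLC30A1 at 5893 and MTF1 at 7937 bases. Protein-coding genes of 180 to 855 bases, the shortest of 20 length bins, had a median log2 fold change of -0.37 and an upper quartile of 0.049. All 7 metallothionein members lay above that upper quartile, from 0.13 for MT1H to 0.65 for MT1M. The interval of MT1H (-0.58 to 0.84) reached well below it, and the functional copy MT1A (-0.016), not a member, lay under it. Against all genes of like length, whose upper quartile was 0.59 (0.53 for the bin of MT1E), only MT1G and MT1M lay above it and the other 5 lay between the quartiles. Relative to the protein-coding median, a reference chosen after seeing the data, they stood 0.50 (MT1H) to 1.01 (MT1M) higher, with MT2A at 0.61 and MT1G at 0.99. Relative to the median of all genes they stood 0.20 (MT1H) to 0.72 (MT1M) higher, with MT2A at 0.31 and MT1G at 0.69.

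Against protein-coding genes, the long members stood closer to genes of their size than the metallothionein members did. The median of protein-coding genes of like length was 0.56 for MTF1 and 0.42 for SLC30A1. MTF1 stood 0.28 and SLC30A1 0.17 above it. SLC30A1 lay below the upper quartile of its protein-coding bin (0.73) and MTF1 just above that of its own (0.82). Relative to the median of all genes of like length, MTF1 stood 0.30 and SLC30A1 0.16 higher. By that reference MTF1 stood level with MT2A (0.31) and farther out than MT1H (0.20). Against all genes MTF1 lay below the upper quartile of its bin (0.86), and so did SLC30A1 (0.79). The deposited length may be that of a single transcript, since MT1M is listed at 232 bases while a GENCODE transcript of it has 829, which falls in the same bin. All 7 protein-coding bins up to 2284 bases had medians below 0.

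The contrast was sharper among short, well-read protein-coding genes, a set chosen with earlier results of these data known. Short and well-read genes of all types were not examined as a set. Of 368 protein-coding genes of 200 to 800 bases with at least 500 reads over both libraries, 8.97% were higher and 80.2% lower in Huh7-si at p under 0.05, with a median log2 fold change of -0.44. MT2A, MT1E, MT1X, MT1F, MT1G and MT1M belong to these genes, and all 6 were among the 33 that were higher. The member MT1H (35 and 37 reads) and the functional copy MT1A (250 and 239 reads, log2 fold change -0.016) fell under the read limit. The 6 are therefore only copies that passed it. At a fold of at least 1.5, 2.45% of the 368 genes were called higher, 9 genes in all, and MT1M and MT1G were among them at ranks 7 and 8 by log2 fold change. The 6 copies share sequence and a locus and are not independent of each other.

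**Figure D4:**
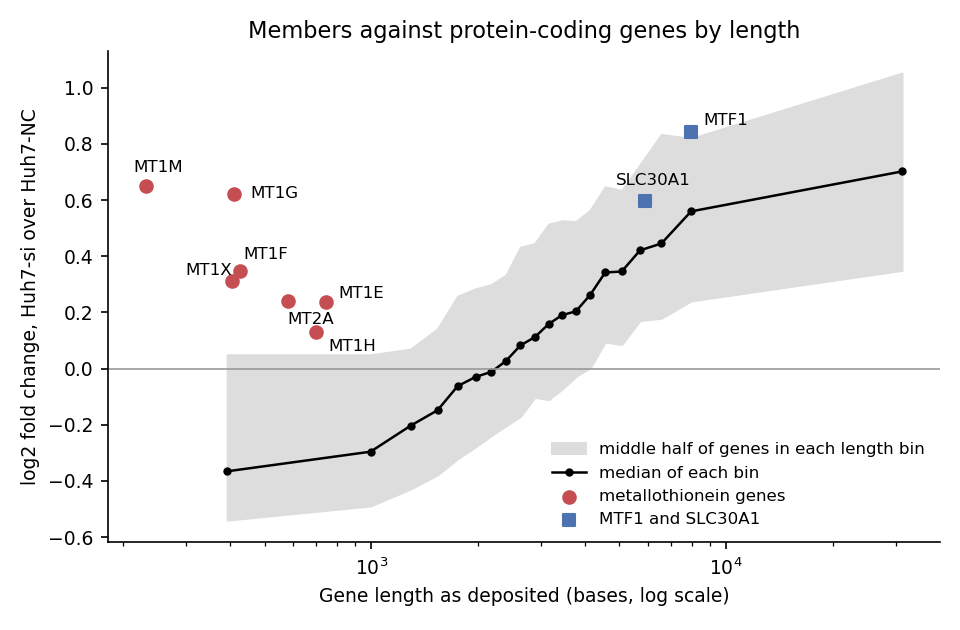
log2 fold change, Huh7-si over Huh7-NC (vertical axis), against gene length as deposited (horizontal axis, bases, log scale), for the metallothionein members (circles) and for MTF1 and SLC30A1 (squares), over the median (line) and the range between the quartiles (grey) of protein-coding genes in 20 length bins, each placed at the middle of its range. The metallothionein members lie above the grey band of short genes, whose median is -0.37, and SLC30A1 lies inside the band of long genes. The functional copy MT1A (-0.016) is not a member, is not drawn and would fall inside the band of short genes. The counting interval of MT1H (0.13, -0.58 to 0.84) spans that band, and its direction reverses with TMM scaling.

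Other zinc transporters were read over the whole SLC30 and SLC39 families. The SLC30 family moves zinc out of the cytosol, and 8 of its other 9 genes had reads. None was called in either direction, and their median log2 fold change was 0.26. SLC30A9, SLC30A5 and SLC30A6 were the most abundant per length by the mean of both libraries, at 33.9 and 31.4, 21.2 and 24.4, and 7.66 and 10.1 TPM. Their log2 fold changes were 0.097 (-0.010 to 0.20), 0.27 (0.14 to 0.40) and 0.25 (0.10 to 0.39). SLC30A10, a manganese exporter of the liver named after its value was seen, had 577 and 938 reads (0.75, 0.60 to 0.90), and the protein-coding median at its length was 0.45. SLC30A8, the transporter of insulin granules, had no reads.

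The SLC39 (ZIP) family moves zinc into the cytosol, and 13 of its 14 genes had reads. None was called, and the median log2 fold change was 0.027 over the 12 with at least 10 reads. SLC39A7, which releases zinc from the endoplasmic reticulum, had 152 and 169 TPM and a log2 fold change of 0.021 (-0.034 to 0.075). SLC39A1 had 130 and 134 TPM and a log2 fold change of -0.14 (-0.20 to -0.080). SLC39A14, the main zinc and manganese importer of hepatocytes, went from 8761 to 10260 reads (log2 fold change 0.28, 0.24 to 0.32). The importer SLC39A10, which MTF1 is known to repress and which was also named after its value was seen, had 238 and 286 reads (0.31, 0.061 to 0.57). By the TPM columns its log2 ratio was 0.95, and relative to protein-coding genes of like length it was -0.11, so its direction depends on the processing.

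**Figure D5:**
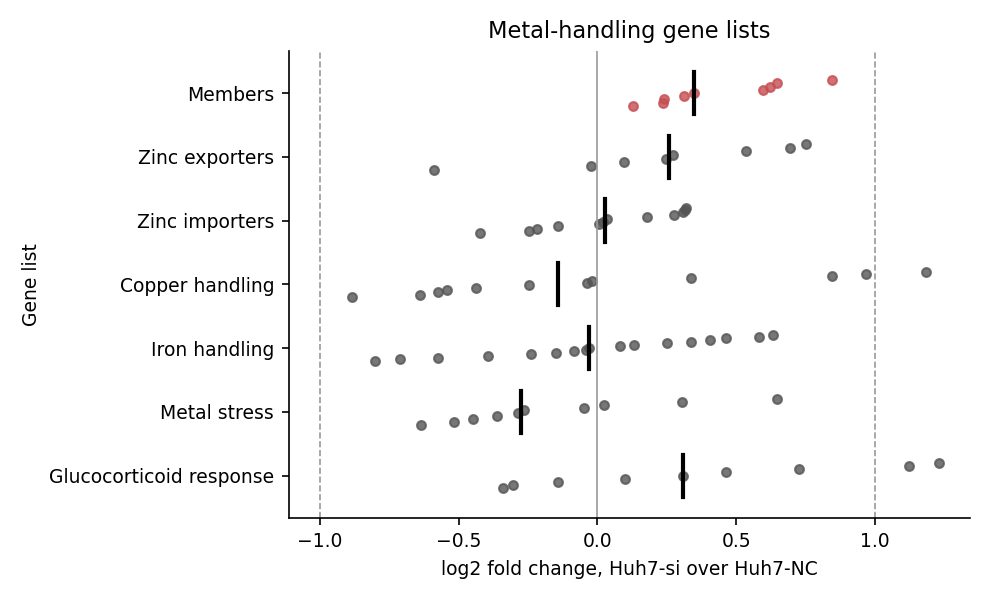
log2 fold change, Huh7-si over Huh7-NC (horizontal axis), of every gene with at least 10 reads in the members' list and in 6 lists of metal-handling and related genes (vertical axis), with the median of each list as a black bar and dashed lines at a 2-fold difference. The medians are 0.35 for the members, 0.26 for zinc exporters and 0.027 for zinc importers. Every member lies above 0 when scaled by total reads, but the members were chosen with earlier results of these data known. The functional copy MT1A (-0.016) is not a member and is not drawn. With TMM scaling MT1H lies below 0.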

How the data were processed

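RNA-seq of 1 Huh7-NC and 1 Huh7-si library was used. For each library the authors deposited, by gene, an unscaled estimated count and a TPM value. The submitters' processing notes name TopHat2 2.0.12, Bowtie2 2.0.6 and GRCh37; the counting tool, annotation and strandedness are not given in the sources used here. The deposited columns of the authors' own comparison (fold change, p, adjusted p and calls) were not used. The length column was used as deposited.

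Estimated counts were rounded to whole numbers and scaled by total reads. Fold changes, exact binomial tests and Clopper-Pearson intervals were computed over all 26379 genes with reads. Intervals for differences between members are normal intervals on the log odds of reads. A count of 0 allows up to 3 reads. With 1 library per condition no spread can be estimated, and p-values compare libraries. The members, gene lists, tests and alternatives were chosen with earlier results of these data known. Named genes were the members, BRF2, metallothionein rows with at least 10 reads, and in each list the genes called or the 3 with the highest mean TPM; others were named after their values were seen. Medians by gene length used 20 bins. Of the identifiers, 94.8% matched GENCODE release 29 (GRCh38). Promoters were taken from RefSeq. Alternatives were TMM, median-of-ratios and upper-quartile scaling, the TPM columns, genes of like length, pseudocounts, filters, thresholds and edgeR's exact test with assumed biological coefficients of variation of 0.1 and 0.4. The tests were tried on simulated reads. Scalings came from edgeR 4.0.16 and DESeq2 1.42.0 in R 4.3.3. Tests were run in SciPy 1.17.1 (Python 3.11.15, pandas 2.3.3, NumPy 2.4.6) and figures drawn with matplotlib 3.10.9.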

Additional observations from a re-analysis of the deposited data

How the results depend on the processing

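BRF2 was lower and past the 2-fold threshold under all 8 alternatives run on it, at -1.99 to -1.59. No paired analysis was possible because each condition has 1 library, and for the same reason no library could be left out. Where no cause is named, the cause was not tested.

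The sign of MT1H reversed with TMM (-0.095), median-of-ratios (-0.078) and upper-quartile scaling (-0.057). The other members kept their sign under every alternative run on them. The number of members called higher was 0, where 10.4% of all genes with reads were. At a fold of at least 1.5 it was 4, where 17.6% of all genes with reads were. It was 1 (MT1M, at 1.01) relative to protein-coding genes of like length, an alternative chosen after seeing the data. The share of all genes called by that reference was not computed. No member was called lower under any alternative run.

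The median log2 fold change of the members was 0.35. TMM scaling gave 0.12, median-of-ratios scaling 0.14 and upper-quartile scaling 0.16, and it was 0.45 by the TPM columns, 0.61 relative to protein-coding genes of like length and 0.47 over members with at least 100 reads, which leaves out MT1H. The log2 fold change of the summed metallothionein reads was 0.28. It was 0.054, 0.072 and 0.093 with the same scalings, 0.38 by the TPM columns, and 0.37 and 0.65 relative to all and to protein-coding genes of like length.

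Over the 6 lists of metal-handling and related genes, 3 genes were called higher and 0 lower. The numbers were 1 and 2 for both TMM and median-of-ratios scaling, 1 and 1 for upper-quartile scaling, 5 and 1 by the TPM columns, 1 and 2 relative to all genes of like length, 1 and 1 relative to protein-coding genes of like length, and 9 and 4 at a fold of 1.5. With edgeR's exact test, 0 were called higher where a biological variation of 0.4 was assumed. MT1H, with 35 and 37 reads, is the member whose depth limits its interval most.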

Other observations

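Several other lists of metal-handling genes had medians below that of all genes (0.21). Of 12 copper genes, 8 had a negative log2 fold change, with a median of -0.14. ATP7A, the copper exporter mutated in Menkes disease, was called higher, at 36 and 79 reads (log2 fold change 1.18, 95% interval 0.60 to 1.79), but its TPM values were 0.76 and 0.90, and it was not called with TMM scaling. Named after their values were seen, SOD1, the cytosolic superoxide dismutase that uses copper and zinc, had 6752 and 4195 reads (-0.64, -0.69 to -0.58), and the copper chaperones ATOX1 and CCS had -0.57 and -0.020. COMMD1, named in the same way, had the lowest value of the copper genes, with 286 and 150 reads (-0.88, -1.18 to -0.59). It was called lower with TMM scaling. CP, which encodes the copper-carrying ferroxidase ceruloplasmin, went the other way, with 992 and 1875 reads (0.97, 0.86 to 1.08). Protein-coding genes of the listed length of SOD1, 895 bases, had a median of -0.30.

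None of the 17 iron genes in the table was called, and their median was -0.031, with 8 genes above 0 and 9 below. The ferritin genes FTL and FTH1, which encode the iron store, had 14971 and 11262 TPM and 7765 and 6143 TPM, with log2 fold changes of -0.57 and -0.40. TF, which encodes the plasma iron carrier transferrin, had 1284 and 1655 TPM and a log2 fold change of -0.041. HAMP, which encodes the iron hormone hepcidin, had 1219 and 676 reads (-0.80, -0.94 to -0.66) at a listed length of 406 bases, close to that of MT1G, and was called lower with TMM scaling. The iron importers TFRC (6535 and 9450 reads, 0.58) and SLC11A2 (0.63) and the exporter SLC40A1 (0.40) had positive values.

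Of 10 genes that respond to heavy metal or oxidative stress, 7 had a negative log2 fold change, and 0 were called. HSPA1A, an inducible chaperone with a near-identical copy in HSPA1B, had -0.64, TXNRD1 had 0.025 and HSPA1B had -0.52. Metallothionein genes also respond to glucocorticoids, and in a list of 9 such genes, 6 of which were above 0 (median 0.31), DUSP1 (1280 and 2695 reads, 1.12) and ZBTB16 (213 and 483 reads, 1.23) were called higher, and with TMM scaling ZBTB16 alone was. Of the others, named after their values were seen, PER1 had 0.73, the receptor gene NR3C1 0.46, SGK1 0.31 and TAT 0.098. FKBP5 had -0.14, PCK1 -0.30 and TSC22D3 -0.34.

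Besides the 6 metallothioneins, 27 short and well-read protein-coding genes were higher in Huh7-si at p under 0.05 by the same exact binomial test. They were looked up after their values were seen, and 7 of the 27 were genes of the mitochondrial genome, whose names share only the letters MT with the metallothioneins. They were MT-ND4L (log2 fold change 2.28, the highest), MT-ATP8 (0.76), MT-ND6 (0.40), MT-CO2 (0.28), MT-CO3 (0.28), MT-ATP6 (0.22) and MT-ND3 (0.11). GADD45B (0.66), TIMP1 (0.52) and LGALS1 (0.18) were others.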
